A study of Homo sapiens with 6 samples.

Results

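miR-221-3p and miR-222-3p (hsa-miR-221-3p and hsa-miR-222-3p in the files) are 2 of the 471 miRNA names in a table of read counts from small extracellular vesicles (EVs), and both rows were found by name. The EVs were purified by dielectrophoresis from the culture medium of spheroids of Cal27, a human squamous epithelial cell line from oral carcinoma, and the medium was taken on day 14. Spheroids grew on Matrigel, a basement membrane gel, at 3 mg/mL in the Soft ECM group (EVsoft) or at 12 mg/mL in the Stiff ECM group (EVstiff), with no other agent named, so a softer and a more dilute gel cannot be told apart in this design. Each group had 3 small RNA libraries, which the study describes as separate isolations from repeated cultures of this 1 line on 1 batch of gel. The question was whether the stiffness of the gel changes the level of either miRNA in EVs, or their ratio.

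MicroRNAs are short RNAs that guide a silencing complex to messenger RNAs, mainly through the seed, the bases near the 5′ end that pair with the target. miR-221 and miR-222 are cut from one primary transcript and have the same seed, so they share most predicted targets. Among these is CDKN1B, which encodes the cell cycle inhibitor p27. Both miRNAs are described as oncogenic in many carcinomas and have been linked to invasion in oral carcinoma.

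The mature sequences below, from RefSeq on GRCh38.p14, are shown because the shared seed is what joins the pair. Capitals mark the seed (bases 2 to 8).
miR-221-3p: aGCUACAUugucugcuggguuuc
miR-222-3p: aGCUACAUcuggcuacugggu
Read from the 5′ end, the first 8 bases were identical, and the longest stretch shared beyond them had 6 bases (cugggu). Placed base against base with no gap, 11 of 21 positions were equal, so reads of full length can be told apart. Of the table's names, 406 matched a RefSeq mature miRNA, and 2 of those 406 had this seed, namely the members. miR-187-5p had the same bases 2 to 7 and was counted 4 times in all, each time in EVstiff replicate 2.

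Both hairpins lie on the minus strand of chromosome X with 748 bases between them. They are shown in full, with the mature products that RefSeq lists in capitals. The hairpin of miR-221 is at chrX:45746157-45746266 and that of miR-222 at chrX:45747015-45747124, both with 110 bases.
MIR221: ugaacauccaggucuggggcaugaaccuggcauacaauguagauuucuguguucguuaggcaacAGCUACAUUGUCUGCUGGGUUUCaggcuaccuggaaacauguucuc
MIR222: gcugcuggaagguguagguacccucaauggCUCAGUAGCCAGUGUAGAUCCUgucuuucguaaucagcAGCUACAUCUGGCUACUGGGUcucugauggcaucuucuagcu
In GENCODE 44, both lie within the lncRNA gene MIR222HG, in an intron of its transcript MIR222HG-201 (chrX:45745211-45770274). A shorter transcript of the gene, MIR222HG-203, begins at base 45746180, which is the last base of mature miR-221-3p, and its exon covers the final 24 bases of that hairpin.

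The miRNA counts of a library summed to between 28688 and 66345, and every EVsoft library held more miRNA reads than every EVstiff library. A count of 0 allows up to 3 counts, which is between 44.8 and 108 CPM (counts scaled to a common library total), and this limit covers counting error only. Squamous epithelial miRNAs were present, since 7 of 7 listed markers had reads. Their summed level was between 61977 and 71895 CPM in EVsoft and between 53725 and 55336 CPM in EVstiff. These ranges did not overlap, and how often such a sum separates the groups was not counted. The 2 most abundant markers went opposite ways. The mean of miR-200c-3p was 27027 CPM in EVsoft and 12586 CPM in EVstiff, and that of miR-205-5p 29760 CPM and 34299.5 CPM. Of the 6 markers tested 3 were called lower in EVstiff (miR-200c-3p, miR-200b-3p and miR-200a-3p) and 0 higher. Over all 105 miRNAs tested, 18.1% were called, 8 lower and 11 higher. miR-205-5p, the most abundant of the markers, was not called (log2 fold change 0.20). Neither was miR-203a-3p (1.21, adjusted p = 0.127, edgeR quasi-likelihood test). The 2 endothelial markers, miR-126-3p and miR-126-5p, summed to between 98.6 and 149 CPM in EVsoft and between 71.9 and 200 CPM in EVstiff. The 5 of 7 blood cell markers with a row summed to between 463 and 1553 CPM in EVsoft and between 366 and 2049 CPM in EVstiff, and miR-144-3p and miR-150-5p had no row. The highest sum was in replicate 2 of each group, where miR-486-5p had 1356 CPM in EVsoft and 1689 CPM in EVstiff. The 4 of 7 markers of stroma and muscle summed to between 194 and 1077 CPM in EVsoft and between 499.6 and 721 CPM in EVstiff. The liver marker miR-122-5p had between 2762 and 4339 CPM in EVsoft and between 6462 and 7512 CPM in EVstiff. The part of these markers in the levels of the members was not tested.

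Both members were abundant, and miR-222-3p was the higher of the 2 in each of the 6 libraries. By mean level, miR-222-3p stood 17th and miR-221-3p 24th among the 105 miRNAs that passed the filter on low counts. The reads of miR-221-3p numbered 466, 295 and 568 in EVsoft replicates 1, 2 and 3, and 264, 176 and 217 in EVstiff replicates 1, 2 and 3. Those of miR-222-3p numbered 1014, 732 and 1373 in EVsoft, and 505, 479 and 363 in EVstiff. For either miRNA every EVsoft library had more reads than every EVstiff library, as it also had more miRNA reads in all (exact permutation test of the reads, two-sided p = 0.1 for each, the smallest p that 3 libraries against 3 allow). Levels were therefore compared within the miRNA content of each library, as CPM scaled by edgeR's TMM method. A lower CPM can mean that fewer EVs carried the miRNA, that each carried less, or that other miRNAs took more of the reads. The counts cannot tell these apart.

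After scaling, the level of miR-221-3p overlapped between the groups. Its CPM were 10239, 7273 and 8479 in EVsoft and 8793, 6326 and 7823 in EVstiff. EVsoft replicate 1 was the highest, EVstiff replicate 2 the lowest, and the other libraries of both groups lay among each other. Within each group replicate 1 was the highest and replicate 2 the lowest. Each EVstiff library lay below the EVsoft library of the same number, but whether the numbers pair the libraries is not known. The mean was 8664 ± 1492 CPM (SD, n = 3) in EVsoft and 7647 ± 1243 CPM (SD, n = 3) in EVstiff. The log2 fold change, EVstiff over EVsoft, was -0.18 (standard error 0.16, 95% interval -0.54 to 0.18, adjusted p = 0.427, edgeR quasi-likelihood test with Benjamini-Hochberg adjustment), which is a ratio of 0.883. The difference was smaller than the spread between replicates, and the interval still holds a change of 0.54 downward on the log2 scale.

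The CPM of miR-222-3p were 22280.5, 18046 and 20496 in EVsoft and 16820.4, 17216 and 13086 in EVstiff. Every EVstiff library lay below every EVsoft library, with EVstiff replicate 3 the lowest and EVsoft replicate 2 the nearest to the EVstiff group. Of all miRNAs tested, 24.8% had levels that did not overlap in this direction. The mean was 20274 ± 2126 CPM (SD, n = 3) in EVsoft and 15707 ± 2279 CPM (SD, n = 3) in EVstiff. The log2 fold change was -0.37 (standard error 0.13, 95% interval -0.66 to -0.08, unadjusted p = 0.0173, adjusted p = 0.0626, edgeR quasi-likelihood test), a ratio of 0.775. A miRNA was called where its log2 fold change exceeded 0.58 in size with an adjusted p no higher than 0.05. miR-222-3p missed both thresholds, and its interval reaches beyond the fold threshold. The summed squamous epithelial markers were lower in the same libraries (53725 to 55336 CPM in EVstiff, 61977 to 71895 CPM in EVsoft), but not each of them. Of the 6 tested, 4 had a negative log2 fold change, among them miR-200c-3p (mean 27027 CPM in EVsoft, 12586 CPM in EVstiff). Those of miR-205-5p (0.20) and miR-203a-3p (1.21) were positive. The part of these markers in the level of miR-222-3p was not tested.

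**Figure D1:**
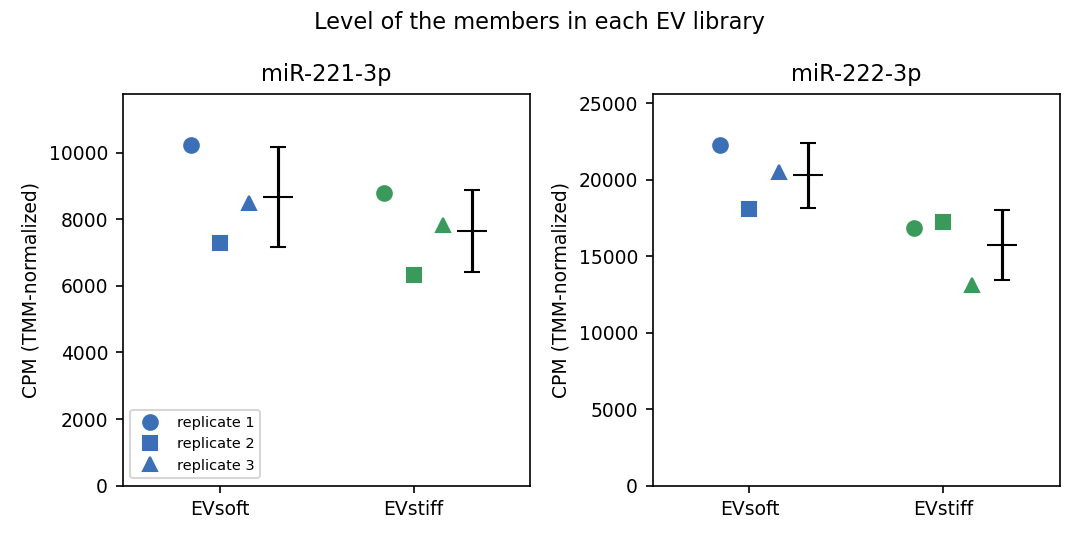
Level of miR-221-3p (left) and miR-222-3p (right) in CPM, TMM-normalized, in each library of EVsoft (blue) and EVstiff (green), with the marker shape giving the replicate number and the black bars the mean ± SD of 3 libraries. The groups overlap for miR-221-3p, whose means are 8664 and 7647 CPM, and do not overlap for miR-222-3p, whose means are 20274 and 15707 CPM.

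Thus 0 of the 2 members were called by edgeR, where 18.1% of all miRNAs tested were (19 of 105, 11 higher and 8 lower in EVstiff). DESeq2 and limma-voom called 0 of the 2 as well, and 1 of the 2, miR-222-3p, had an unadjusted p under 0.05 in edgeR's test, as did 42 of the 105. Both log2 fold changes were below the median of all miRNAs tested, which was -0.04, as were those of many others. By fold change, 33 miRNAs were lower than miR-222-3p and 46 lower than miR-221-3p. The adjusted p of miR-222-3p lay close to its threshold and passed it in some settings (0.0062 without EVsoft replicate 2, 0.0414 with library size only), while its fold change did so only when raw counts were compared. Without EVstiff replicate 3 its log2 fold change was -0.24 (adjusted p = 0.179).

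**Figure D2:**
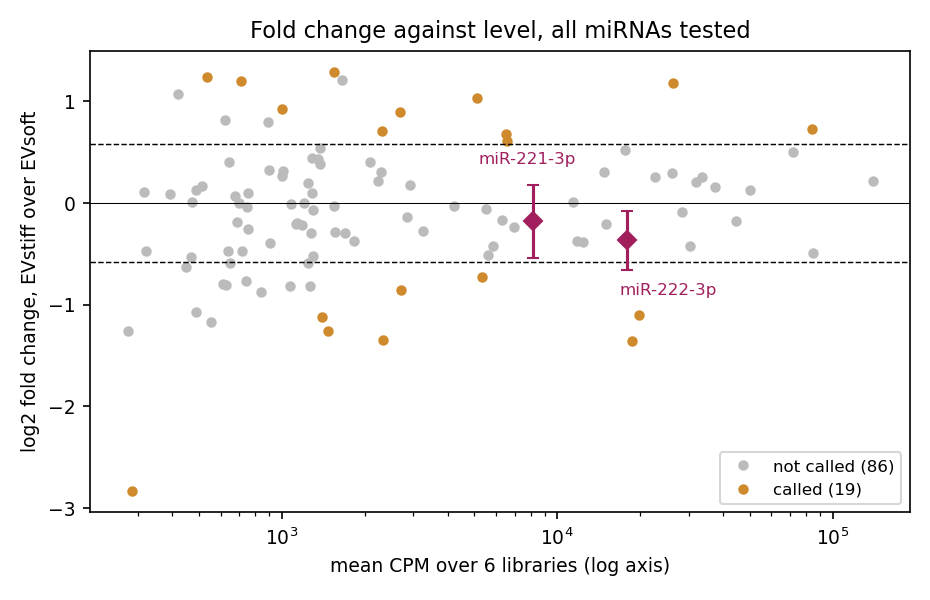
Log2 fold change (EVstiff over EVsoft) against mean CPM on a log axis for the 105 miRNAs tested, with called miRNAs in orange, the others in grey and the members as diamonds with 95% intervals. The dashed lines mark the fold threshold of 0.58, and both members lie between them, at -0.18 and -0.37.

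The spread of each member between replicates was wider than independent reads of these numbers would give. The coefficient of variation of miR-221-3p was 17.2% in EVsoft and 16.3% in EVstiff, where its read numbers would give 4.93% and 6.85%. For miR-222-3p it was 10.5% and 14.5%, against 3.20% and 4.77%. PCR copies of one molecule are counted as separate reads, so the error from counting may be larger than stated.

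As shares of all miRNA counts, miR-222-3p made up 2.21%, 1.87% and 2.07% in EVsoft and 1.65%, 1.67% and 1.22% in EVstiff, with no overlap. How many miRNAs, or sums of them, separate the groups on this scale was not counted. On the TMM scale 24.8% of the miRNAs tested did so in this direction. The widest 95% confidence interval of these shares (Wilson) was from 1.53% to 1.82%, in EVstiff replicate 2. The members together held 3.23%, 2.62% and 2.93% of the counts in EVsoft and 2.51%, 2.28% and 1.95% in EVstiff. Their summed share was 2.92% ± 0.304 (SD, n = 3) in EVsoft and 2.25% ± 0.279 (SD, n = 3) in EVstiff, with every EVstiff library below every EVsoft library (two-sided exact permutation p = 0.1, again the smallest possible). This separation was lost on the TMM scale, where the summed level was 25318 CPM in EVsoft replicate 2 and 25614 CPM in EVstiff replicate 1 (exact permutation test of the summed CPM, two-sided p = 0.2).

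The ratio of the members does not depend on the scaling of a library, and its difference between groups is the test of whether the fold changes of the members differ. For each read of miR-221-3p there were 2.18, 2.48 and 2.42 reads of miR-222-3p in EVsoft and 1.91, 2.72 and 1.67 in EVstiff. The EVsoft ratios lay close together and inside the range of the EVstiff ratios. EVstiff replicate 2, where miR-221-3p was low, had the highest ratio, and EVstiff replicate 3, where miR-222-3p was low, the lowest. The log2 ratio of miR-221-3p to miR-222-3p was -1.24 ± 0.10 (SD, n = 3) in EVsoft and -1.04 ± 0.36 (SD, n = 3) in EVstiff. The difference of 0.19 was smaller than the SD in EVstiff (exact permutation test, two-sided p = 0.4), so no difference between the fold changes of the members was detectable. Without EVstiff replicate 2 the difference was 0.40, and without EVstiff replicate 3 it was 0.05.

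miR-221-3p made up 31.5%, 28.7% and 29.3% of the reads of the pair in EVsoft and 34.3%, 26.9% and 37.4% in EVstiff. The 95% confidence intervals (Wilson) of the EVsoft libraries overlapped one another, from 26.0% at the lowest bound to 33.9% at the highest. In EVstiff, the interval of replicate 2 (23.6% to 30.4%) lay below those of replicate 1 (31.1% to 37.8%) and replicate 3 (33.6% to 41.4%). Set against counting noise, the share varied by a chi-square of 1.42 per degree of freedom over the EVsoft libraries and 8.44 over the EVstiff libraries, each with 2 degrees of freedom. Whether the spread itself differs between the groups was not tested with 3 libraries in each.

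**Figure D3:**
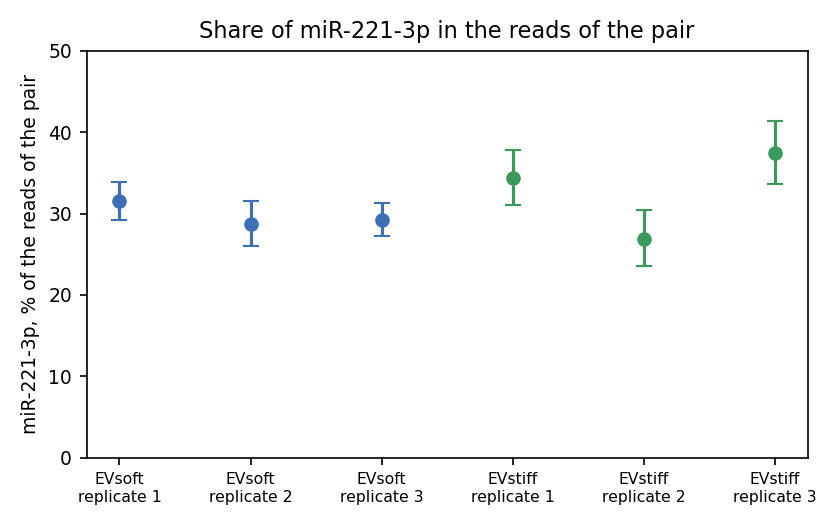
Share of miR-221-3p in the reads of the pair, in percent, in each library of EVsoft (blue) and EVstiff (green), with 95% Wilson confidence intervals. The EVsoft libraries sit between 28.7% and 31.5%, and the EVstiff libraries spread from 26.9% to 37.4%, on both sides of them.

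The other arms of the hairpins were scarce. miR-221-5p, the partner of miR-221-3p, had 7, 4 and 5 reads in EVsoft and 1, 0 and 0 in EVstiff, or 16 reads in EVsoft and 1 in EVstiff beside 1329 and 657 of the 3p arm. In EVstiff replicate 2, 0 of 28688 reads allows a share of up to 0.0105%. It did not pass the filter, so the arms were not compared and no fold is given. miR-222-5p had no row in the table.

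Read ratios of other miRNAs whose genes lie in one cluster served as a measure of how steady such a ratio was in these libraries. Of 14 other pairs listed, 6 had at least 10 reads of both miRNAs in every library. The difference of their mean log2 ratios, EVstiff minus EVsoft, ranged from -0.70 (miR-99b-5p to let-7e-5p) to 0.24 (miR-183-5p to miR-182-5p), beside 0.19 for the miR-221 and miR-222 pair. Over the 6 libraries the log2 ratio of miR-221-3p to miR-222-3p varied by 0.70 from lowest to highest, and those of the 6 other pairs by between 0.77 and 1.98. The groups overlapped for each of the 7 pairs. The other pairs had as few as 12 to 39 reads of one miRNA in a library, where the members had at least 176, so these ranges include more counting error. miR-181a and miR-181b are each encoded in 2 gene clusters, so their ratio is not that of a single transcript. It varied by 1.63, inside the range of the other pairs.

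**Figure D4:**
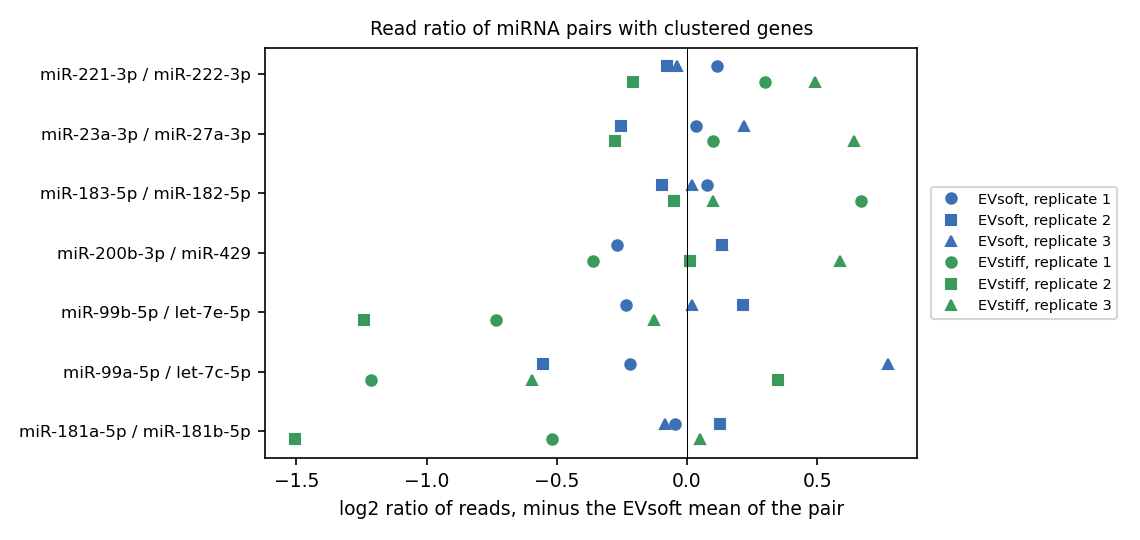
Log2 ratio of reads for 7 pairs of miRNAs whose genes are clustered, in each library of EVsoft (blue) and EVstiff (green), after subtracting the EVsoft mean of the pair, with the marker shape giving the replicate number. The points of miR-221-3p to miR-222-3p span 0.70 in all, and those of the other pairs between 0.77 and 1.98.

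In order of level, miR-222-3p stood between miR-146a-5p and miR-1246, and its place differed by group. In EVsoft it was below miR-146a-5p (26962 ± 707 CPM, SD, n = 3) and above miR-1246 (14434 ± 589 CPM). In EVstiff it was above miR-146a-5p (10526 ± 221 CPM) and below miR-1246 (20773 ± 864 CPM), both of which passed an adjusted p of 0.05. The next, miR-151a-3p, had 16082 ± 1526 CPM in EVsoft and 13960.4 ± 337 CPM in EVstiff, and in EVstiff it lay within 1 SD of miR-222-3p. miR-221-3p stood below miR-26a-5p (11351 ± 311 CPM in EVsoft and 11401 ± 765 CPM in EVstiff) and above miR-25-3p (7521 ± 1007 CPM in EVsoft and 6379 ± 478 CPM in EVstiff). Its SD overlapped that of miR-25-3p in EVsoft and in EVstiff, and that of miR-26a-5p in neither. Next in order were miR-200c-3p (19806 CPM over the 6 libraries) above miR-146a-5p, miR-27b-3p (11806 CPM) above miR-26a-5p and miR-320b (6568 CPM) below miR-25-3p.

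Likeness of pattern was measured as Pearson's correlation of log2 CPM over the 6 libraries, as a description, since the libraries fall into 2 groups and share their scaling. Most like miR-222-3p were miR-200b-5p (0.98), miR-17-5p (0.95), miR-193a-5p (0.90), miR-7-5p (0.88) and miR-27a-3p (0.88). Most like miR-221-3p were miR-20a-5p (0.75), miR-103a-3p (0.74), miR-30a-5p (0.74), miR-23a-3p (0.72) and miR-193a-5p (0.69). In EVstiff replicate 2, where miR-221-3p was lowest, miR-20a-5p and miR-103a-3p had 8 reads each. Counting error is large at such numbers. With each other the members reached 0.47, which put miR-222-3p 24th in likeness to miR-221-3p and miR-221-3p 32nd in likeness to miR-222-3p.

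Among other miRNAs encoded on chromosome X, 27 of 36 listed had a row and 4 passed the filter. These were miR-224-5p (log2 fold change -0.03), miR-532-5p (0.43), miR-98-5p (-0.21) and miR-361-3p (0.82, standard error 0.30, adjusted p = 0.0647 in edgeR). edgeR, DESeq2 and limma-voom each called 0 of the 4, and 1 of the 4, miR-361-3p, had an unadjusted p under 0.05. The median of the 4 was 0.20, beside -0.04 over all miRNAs tested. The summed level of the list was between 7866 and 8702 CPM in EVsoft and between 7224 and 9260 CPM in EVstiff, so that miR-222-3p alone exceeded the sum of all of them in each library.

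Of 14 miRNAs known in the growth or invasion of oral carcinoma, 9 were tested, and in the edgeR test 4 reached an adjusted p of 0.05 or less, 1 higher and 3 lower in EVstiff. The background for this rule was 23.8% (25 of 105). With the fold threshold as well, 2 of the 9 were called, miR-146a-5p and miR-155-5p, where 18.1% of all miRNAs tested were. Those lower were miR-146a-5p, a feedback inhibitor of NF-kB signalling, at -1.36, miR-155-5p, an inflammation-induced miRNA, at -0.86 and miR-21-5p, an abundant oncogenic miRNA, at -0.49. miR-1246 was higher, at 0.53. Of the 5 others, miR-24-3p was at 0.26 and the rest at negative values (miR-10b-5p, -0.38, miR-196a-5p, -0.82, miR-93-5p, -0.88, and miR-31-5p, -0.80). The median of the 9 was -0.80, beside -0.04 over all miRNAs tested.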

How the data were processed

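Small RNA libraries of Cal27 spheroid EVs (3 EVsoft, 3 EVstiff) were grouped and numbered by their labels. The authors deposited raw read counts per miRNA, after quality control with exceRpt and counting of RefSeq features. The build named in the submitters' processing notes is hg38, and the aligner for miRNAs is not given in the sources used here. The study's TPM values were not used here.

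The analysis used R 4.3.3 and edgeR 4.0.16 (filterByExpr, TMM, quasi-likelihood test), with limma 3.58.1 and DESeq2 1.42.0 for alternatives. P-values were adjusted by Benjamini-Hochberg over the 105 miRNAs tested, and calls used the study's thresholds. No pair of libraries was a copy, since counts differed by a chi-square of at least 3.40 per degree of freedom. Ratios and shares were compared over libraries with exact permutation tests (scipy 1.17.1). The procedure was checked on simulated data. Hairpins were taken from RefSeq (GRCh38.p14) by name, and the GENCODE 44 transcripts and exons around them were found by overlap of positions.

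The miRNAs named are the members, the 5p arms, the 8 most read of each list, the nearest 2 miRNAs on each side in level and the 5 most alike, as well as the pairs with the lowest and highest difference. miR-31-5p completes its list, and miR-187-5p and the marker miRNAs were named after their values were seen. A further list of miRNAs, defined by shared targets, is not reported here. The members and lists were chosen with earlier results of these data known. The alternatives were other scalings, filters and tests, the most abundant miRNA left out, thinning of all libraries to the smallest total, the replicate number as a block, and leaving out single libraries.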

Additional observations from a re-analysis of the deposited data

How the results depend on the processing

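Across the 18 alternatives both members kept a negative log2 fold change, and in 17 of the 18 neither was called. The exception compared raw counts, every library having the same library size, where the log2 fold changes were -1.02 for miR-221-3p (adjusted p = 0.0016) and -1.21 for miR-222-3p (adjusted p = 0.000166). That setting moved the median of all miRNAs to -0.89, so that the members lay 0.13 and 0.32 below it (-0.13 and -0.32), beside -0.14 and -0.33 in the reported fit, and the number called became 57, 0 higher and 57 lower. Under the other 17 alternatives, 5 gave miR-222-3p and 0 gave miR-221-3p an adjusted p of at most 0.05. The 19 calls split into 11 higher and 8 lower, and became 8 and 11 with library size only, and 10 and 12 of 22 with at least 10 counts in every library. Leaving out 1 library at a time gave log2 fold changes from -0.31 to -0.05 for miR-221-3p and from -0.44 to -0.24 for miR-222-3p, 13 to 19 calls, differences in log2 ratio from 0.05 to 0.40, and differences in summed share from -0.83 to -0.53 percentage points. Without EVsoft replicate 1, miR-221-3p lay at the median of all miRNAs (both -0.05). Without EVstiff replicate 2 it lay 0.02 above the median, so its place below the median was not stable. miR-222-3p stayed below the median in each of these fits. Of the lists, that of chromosome X had 0 calls and between 0 and 2 over the alternatives, and that of oral carcinoma 2 and between 1 and 7, the highest in both cases with raw counts. With the replicate number as a block the log2 fold changes were -0.18 and -0.37 with 16 calls, and the paired exact permutation tests gave two-sided p = 0.5 for the ratio and 0.25 for the summed share, the smallest that 3 pairs allow. With the block the standard error of miR-221-3p was 0.093, beside 0.162 without it, and its adjusted p was 0.210 (edgeR quasi-likelihood test). Deviations of same-numbered libraries from their group means correlated across miRNAs at -0.13, 0.13 and -0.03. Only replicate 2 correlated best with its own number. With 3 libraries in each group, these correlations cannot decide whether the numbers pair the libraries. At this depth miR-221-5p, with 17 reads in all, could not be compared between the groups.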
